A study of Mus musculus with 8 samples.

Results

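The methionine cycle and SAM use genes described here are 10 genes chosen by name: Mtr and Mtrr, Mat2a and Mat2b, Ahcy, Ahcyl1 and Ahcyl2, Mtap, Amd1, and Srm. Each was followed over its gene body, the genomic span of its longest protein-coding transcript in GENCODE release M21 on mm10, in the H3K36me3 ChIP–seq peaks of 4 libraries. These are 10 of 16263 protein-coding genes with at least 4 exons. H3K36me3, trimethylation of lysine 36 of histone H3, is laid down along transcribed gene bodies by a SAM-dependent methyltransferase.

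The cells were i4F MEFs, mouse embryonic fibroblasts in which doxycycline switches on a cassette of the pluripotency factors OCT4, SOX2, KLF4 and MYC (OSKM). All came from a single E13.5 embryo, labelled Clone 1, so that the uninduced controls carried the cassette too. All were kept for 72 h in iPSC medium, without doxycycline (MEF), with 2 µM vitamin B12 alone (MEF B12), with 1 µg/ml doxycycline (OSKM), or with doxycycline and 2 µM vitamin B12 together (OSKM B12). The methods of the study give the doxycycline dose in mg/ml, and the labels were followed here. With 1 H3K36me3 library and 1 input for each condition, differences between conditions rest on single libraries without a replicate check, and p-values are not given. The mark was measured in a mixed population at an early time of reprogramming, and fewer cells with the mark cannot be told apart from less of it per cell.

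In the methionine cycle, methionine synthase (Mtr) uses vitamin B12 as its cofactor to make methionine from homocysteine, and methionine synthase reductase (Mtrr) restores the enzyme when its cobalamin becomes oxidised. Methionine adenosyltransferase, with Mat2a as its catalytic and Mat2b as its regulatory subunit, makes S-adenosylmethionine (SAM), the methyl donor of nearly all cellular methylation, H3K36me3 included. Donation of the methyl group leaves S-adenosylhomocysteine, which Ahcy splits to return homocysteine to the cycle. A side branch spends SAM on polyamines through Amd1 and Srm, and Mtap salvages the methylthio group that this branch leaves.

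2 short sets of sequence show where in the members these roles lie. Exon 22 of Mtr encodes the Asp-x-His-x-x-Gly motif by which cobalamin-dependent enzymes hold their cofactor. The motif was found 1 time in the translated coding sequence of 1253 codons, at residue 771. The stretch lies on the reverse strand of GRCm38 at chr13:12212393-12212482 and is printed 5′ to 3′, with the codons of the motif in capitals.
Mtr exon 22: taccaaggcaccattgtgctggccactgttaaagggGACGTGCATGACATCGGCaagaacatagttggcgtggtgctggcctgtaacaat
All 90 bases lay inside a peak in each of the 4 libraries, and the peak over them had a scaled pileup of 0.494 in MEF and 0.608 in MEF B12, against 0.510 in OSKM and 0.682 in OSKM B12. Scaled pileup is the mean number of H3K36me3 fragments over a base of the peak, per 1000000 tags of the library. The exon was therefore called in every condition. Each value is a mean over a whole peak, and these peaks differed in length. The OSKM peak had 986 bases, against 3107, 2121 and 21008 bases for MEF, OSKM B12 and MEF B12. Whether the signal over the exon itself differed between conditions was not tested.

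The last exon of Mat2a, at chr6:72432799-72435114 on the reverse strand, carries the sites at which the RNA methyltransferase METTL16 binds and modifies the transcript, a known feedback of SAM on its own synthesis. The 9-letter motif TACAGAGAA or TACAGAAAA was searched on the transcribed strand, and 6 copies were found in the 2316 bases of the exon. They are printed 5′ to 3′ with 10 bases on each side and the motif in capitals.
Mat2a site 1: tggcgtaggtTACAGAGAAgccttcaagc
Mat2a site 2: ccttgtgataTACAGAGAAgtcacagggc
Mat2a site 3: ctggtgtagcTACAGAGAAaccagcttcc
Mat2a site 4: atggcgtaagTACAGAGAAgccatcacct
Mat2a site 5: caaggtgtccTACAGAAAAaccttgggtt
Mat2a site 6: gctggtgtggTACAGAGAAgccagcttgt
They span chr6:72434235-72434263 (site 1), chr6:72433451-72433479, chr6:72433272-72433300, chr6:72433157-72433185, chr6:72433046-72433074 and chr6:72432938-72432966 (site 6). For comparison, the last 2316 bases of other gene bodies were searched, introns included. Of 16063 genes with at least 4 exons and a body at least that long, 1124 (7.0%) held at least 1 copy, and Mat2a was the 1 gene with 6. Each of the 6 sites lay inside a peak in all 4 libraries. A match to these letters is a description of the sequence, and binding was not measured here.

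The 4 H3K36me3 libraries held between 29046913 and 33399267 tags, and the authors' MACS2 lists gave 65473 to 69420 broad peaks, which covered 92.8 Mb in OSKM and 154 to 166 Mb in the other 3. Of the fibroblast markers, 8 of 8 had at least 34.0% of their body in peaks in every library, with a summed density of 5.63 in MEF and 6.26 in MEF B12, against 3.45 in OSKM and 6.44 in OSKM B12. This sum was lowest in OSKM, as the members' densities were, and its part in their values was not tested. Of the 4 epithelial markers measured, none had a peak in any library. The 5 pluripotency markers had none except Zfp42, with 2.43% covered in OSKM. Among blood and endothelial markers, Cd68 (76.0% to 100% covered), Csf1r, whose body overlaps that of Hmgxb3, and, in OSKM B12, Tek (26.6%) passed 10%, while Ptprc, Pecam1 and Cdh5 had no peak.

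Over the 10 members, H3K36me3 per tag of the library was lowest in OSKM and about as high in OSKM B12 as in the MEF libraries, a direction that turned for most members when densities were divided by the median of the library. The mean share of the gene body in peaks was 46.9% in MEF and 51.3% in MEF B12, against 35.9% in OSKM and 52.1% in OSKM B12. The mean density, which is the scaled pileup summed over the bases in peaks and divided by the length of the body, was 0.299, 0.361, 0.179 and 0.380 in the same order. Every member had its lowest density in OSKM, and 8 had their highest in OSKM B12 and 2, Mat2b and Amd1, in MEF B12. Of the 8779 marked genes defined below, 8598 had a lower density in OSKM than in MEF, and 8725 a higher one in OSKM B12 than in OSKM. The library with the highest density was not counted over marked genes. The number of peaks went the other way from the density, with 57, 49, 72 and 53 over the members. A base outside the peaks was counted as 0, so that both measures depend on how much of a body passed the cut-off of the peak caller.

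**Figure D1:**
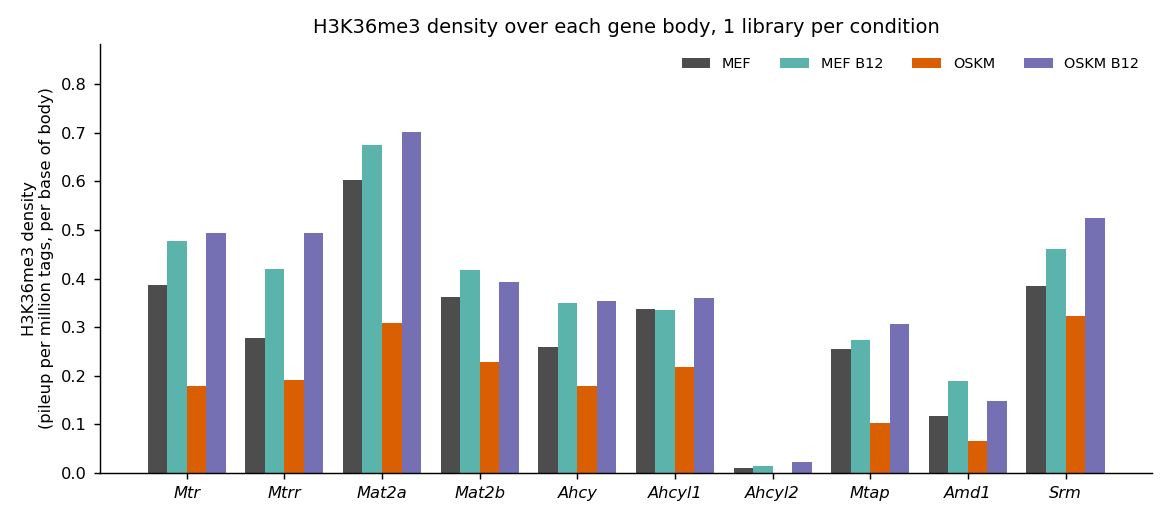
H3K36me3 density (pileup per 1000000 tags, per base of the gene body) of the 10 members, with a bar for the 1 library of each condition. The OSKM bar is the lowest of the 4 in every gene, at 0.308 in Mat2a and 0.322 in Srm, the highest in OSKM, and at 0 in Ahcyl2, though with densities divided by the library median 7 genes were higher in OSKM than in MEF.

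The members were read against all marked genes. A gene was called lower or higher at a 1.5-fold difference of the density, with 0.05 added to both values, and was counted as marked when at least 10% of its body was covered in at least 1 library. Of the 8779 marked genes, 69.2% were called lower in OSKM than in MEF, against 3 of the 10 members (Mtr, Mat2a and Mtap). Ahcyl2, with no peak in OSKM, could not be called lower, since the 0.05 added to its low MEF density holds its change at −0.24. Between OSKM and OSKM B12, 95.3% of marked genes were called higher with vitamin B12, against 9 of 10 members, the exception being Ahcyl2. Between MEF and MEF B12, 3.47% of marked genes were called higher, against 0 of 10 members. Of the 10 members 9 are marked genes, and each of these 9 had over 10% of its body covered in all 4 libraries, so that none entered through 1 condition alone.

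The median log2 change of the members was −0.52 from MEF to OSKM, 0.79 from OSKM to OSKM B12 and 0.20 from MEF to MEF B12, beside −0.71, 0.98 and 0.21 over all marked genes. The densities summed over the members had a ratio of 0.599 in OSKM against MEF (95% counting interval 0.578 to 0.621), of 2.12 in OSKM B12 against OSKM (2.04 to 2.19) and of 1.21 in MEF B12 against MEF (1.17 to 1.24). These intervals, and those of densities below, rest on the number of tags estimated from pileup and fragment length, and cover counting error only. For the summed densities the interval is that of the members' pooled tags, moved to the ratio of densities. Mtr alone gave 3260 of the 8426 pooled tags in MEF, while a sum of densities gives short genes with few tags more weight. The 3 intervals of summed densities are therefore too narrow, by an amount that was not computed. Because nearly every marked gene was lower in OSKM, the direction depends on the scale, and with each density divided by the median of its library over marked genes the summed ratios were 1.21, 0.838 and 1.01. On that relative scale Mtr, Mtap and Ahcyl2 were still lower in OSKM than in MEF, with log2 changes of −0.08, −0.24 and −0.24, and the other 7 members were higher. No spike-in was used to set the scale between libraries.

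**Figure D2:**
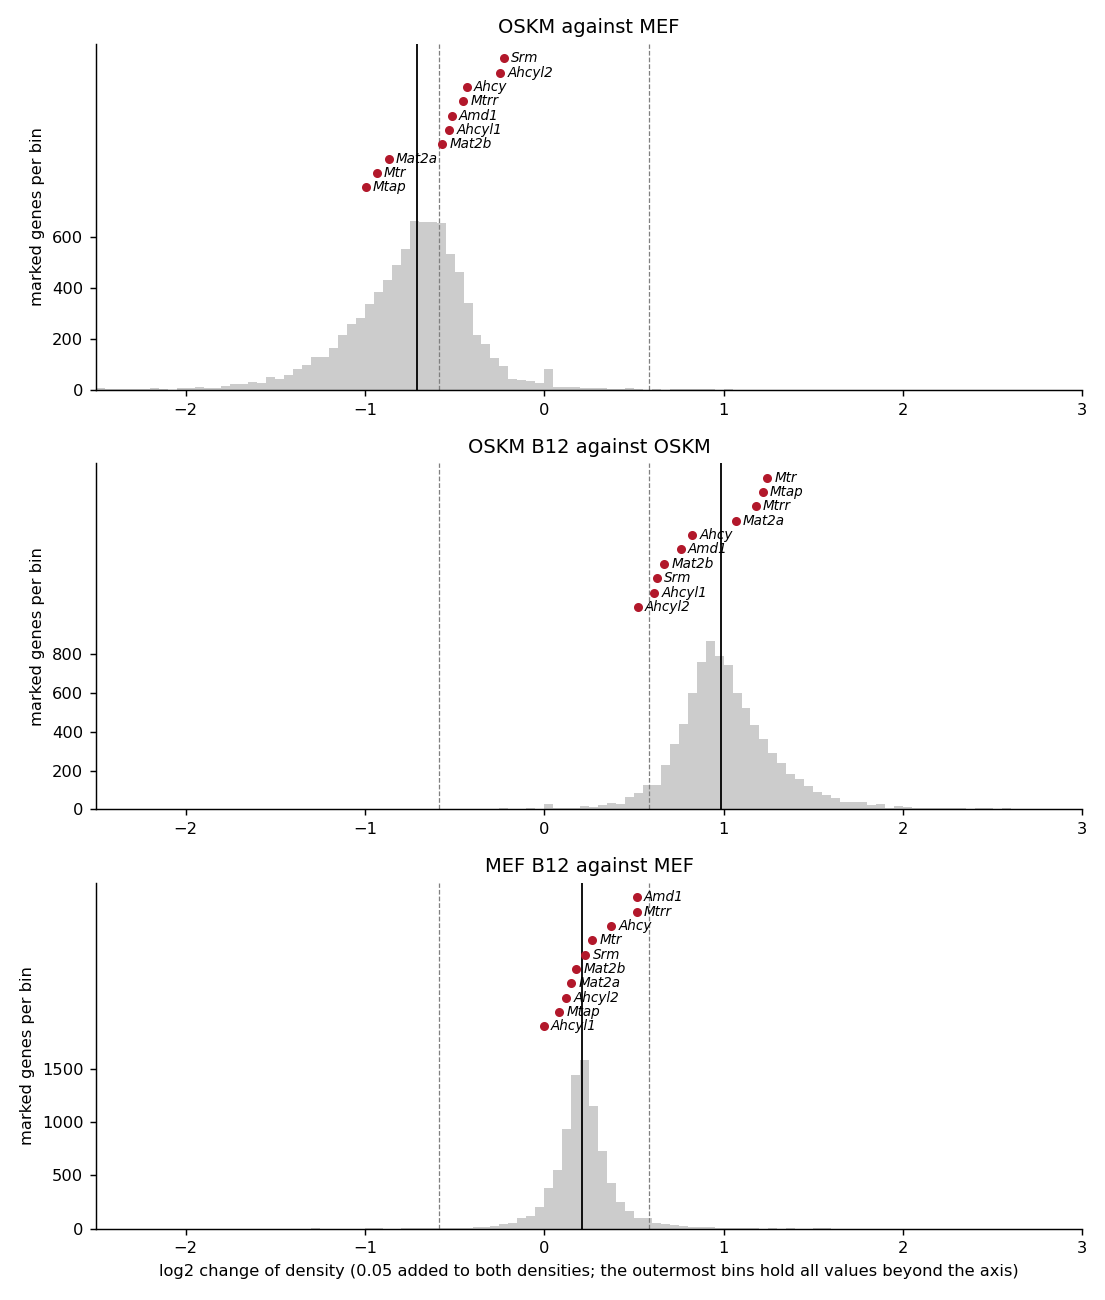
Histograms of the log2 change of density over the 8779 marked genes (grey), with the 10 members as red points at arbitrary height, the median of marked genes as a black line and the 1.5-fold limits as dashed lines. From MEF to OSKM 7 members lie to the right of the median of −0.71, and from OSKM to OSKM B12 the 4 members to the right of the median of 0.98 are Mtr, Mtap, Mtrr and Mat2a. With densities divided by the library median, Mat2a, Mat2b, Ahcy, Ahcyl1, Amd1 and Srm changed direction in both of these comparisons, and Mtrr in the first.

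The change of a density has 2 parts, the share of the body that is covered and the pileup inside the peaks. From MEF to OSKM, Mtap, Mtr and Mtrr lost more in covered share than in pileup, with covered ratios of 0.478, 0.533 and 0.797 and pileup ratios of 0.844, 0.867 and 0.856. In the other 6 members that could be compared the pileup moved more, and Mat2a stood at the far end with a covered ratio of 0.830 and a pileup ratio of 0.616. Srm was the 1 member whose covered share was not lower, at a ratio of 1.04. From OSKM to OSKM B12, Mtr, Mtrr and Mtap had higher covered shares by factors of 2.00, 1.95 and 2.21 and no other member by more than 1.35. Both comparisons use the same OSKM library, so this repeat of the division is not a separate check. Ahcyl2, with no peak in OSKM, has no ratio.

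**Figure D3:**
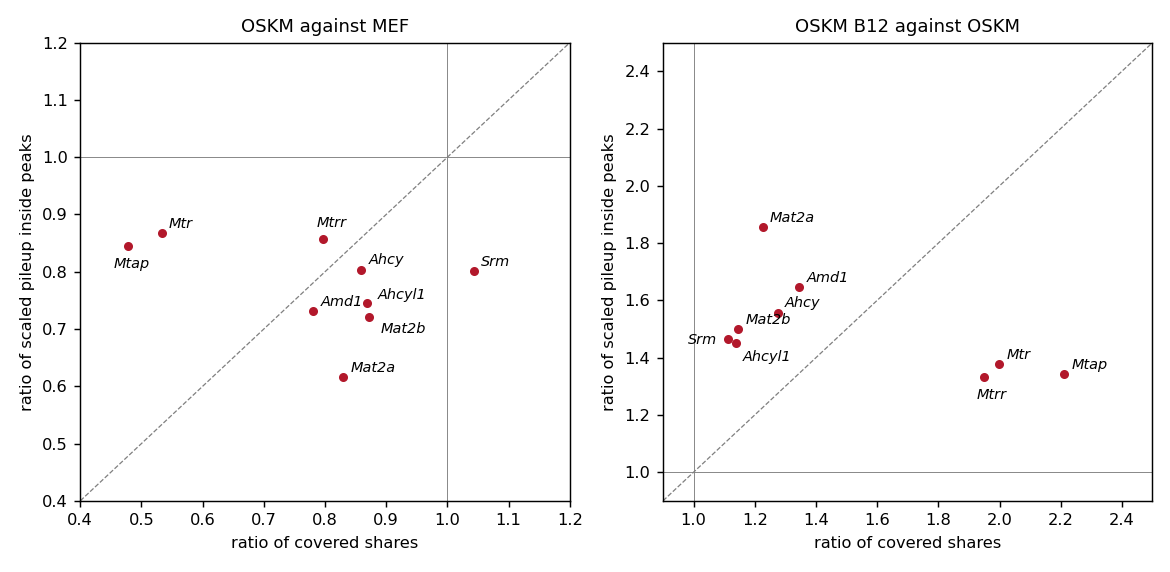
Ratio of covered shares (x axis) against ratio of scaled pileup inside peaks (y axis) for the 9 members with peaks in every library, from MEF to OSKM (left) and from OSKM to OSKM B12 (right), with equal change on the dashed line. Mtr, Mtrr and Mtap lie on the covered-share side of the line in both panels, which use the same OSKM library, and the other 6 on the pileup side.

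Mtr (ENSMUSG00000021311), methionine synthase, lies on the reverse strand at chr13:12182712-12258095, with 33 exons over 75384 bases. Peaks covered 74.1% of the body in MEF and 79.1% in MEF B12, against 39.5% in OSKM and 78.9% in OSKM B12. The density was 0.388 in MEF and 0.477 in MEF B12, against 0.179 in OSKM and 0.493 in OSKM B12. OSKM stood apart from the other 3 libraries by both measures, with a density ratio to MEF of 0.462 (0.435 to 0.491), and OSKM B12 was at 2.75 times OSKM (2.59 to 2.92). The long domain was divided into 34 peaks in OSKM against 17, 15 and 18 in MEF, MEF B12 and OSKM B12, and the longest peak was 3400 bases in OSKM against 7525, 21008 and 10713. From the first to the last peak the mark ran from 7640 to 72648 bases from the start in OSKM, a shorter span at both ends than the 5376 to 75209 bases of MEF. Exons touched by a peak numbered 28 in MEF and 30 in MEF B12, against 20 in OSKM and 31 in OSKM B12. Among the bases called in MEF, 50.3% were called in OSKM, and 88.9% of the 27753 bases lost were called in OSKM B12. Where a base was in a peak in all 4 libraries, the mean scaled pileup of the peaks holding it was 0.536, 0.615, 0.456 and 0.651. By this measure OSKM was at 0.850 of MEF. Each base carries the mean of its whole peak, and only bases that also passed the cut-off in OSKM are included. The signal base by base was not compared.

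Mtrr (ENSMUSG00000034617), which reactivates methionine synthase, lies at chr13:68561363-68582104 on the reverse strand, with 15 exons over 20742 bases. It was covered over 50.8% in MEF and 72.7% in MEF B12, against 40.5% in OSKM and 78.9% in OSKM B12, while its density was 0.279, 0.420, 0.190 and 0.494. As in every other member except Ahcyl1, the densities of the 2 libraries with vitamin B12 were both above the 2 without it. Of the 8779 marked genes, 8090 had a higher density in MEF B12 than in MEF. From MEF to MEF B12 the density ratio was 1.51 (1.36 to 1.67), just under the limit for a call once 0.05 was added to both values, and 94.9% of marked genes changed less in that comparison. With vitamin B12 the first peak began nearer to the start, at 2.33 kb in MEF B12 and 2.62 kb in OSKM B12 against 4.39 kb in MEF and 4.69 kb in OSKM. In OSKM B12 a peak of 12330 bases ran across most of the distal body, where OSKM had shorter peaks of at most 2754 bases.

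**Figure D4:**
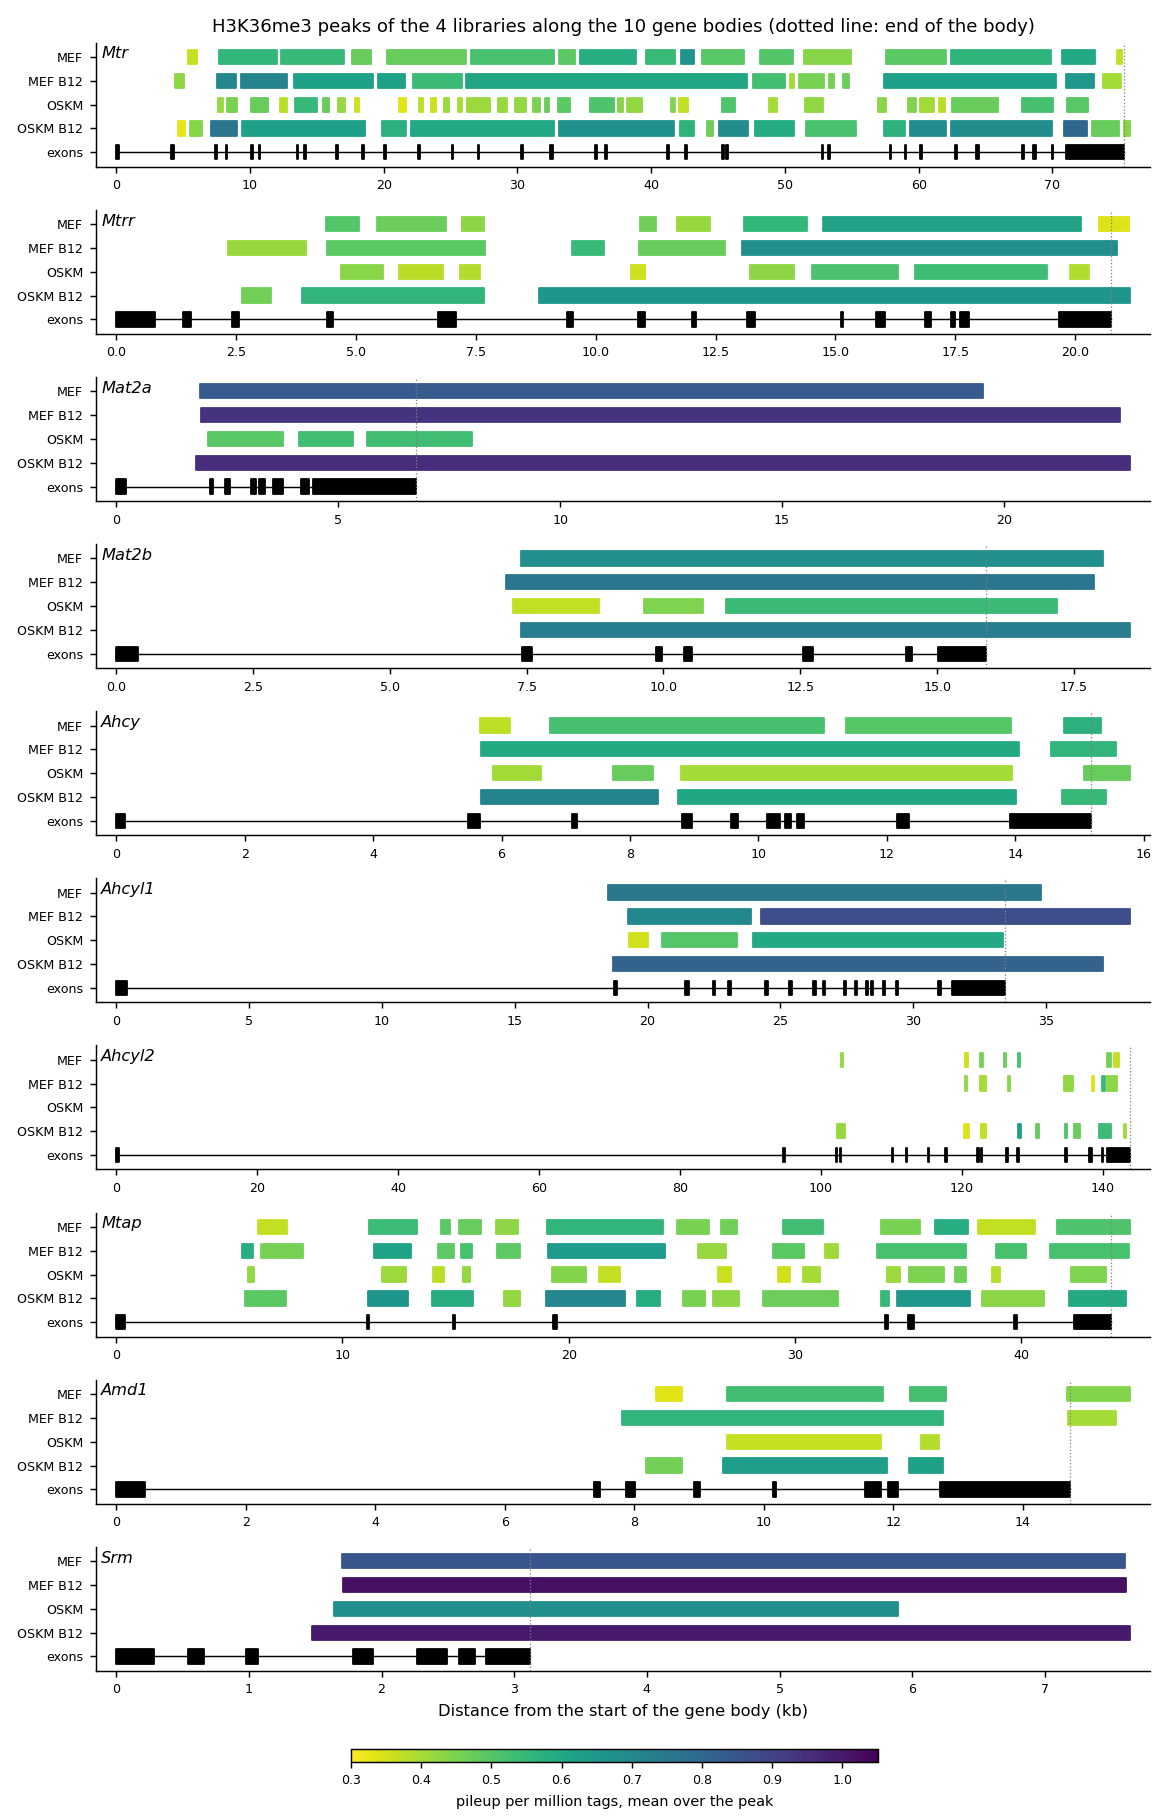
Peaks of the 4 libraries along each of the 10 gene bodies, with distance from the start in kb on the x axis, exons in black, the end of the body as a dotted line, and colour for the scaled pileup of each peak. In every gene the first exon is free of peaks, the OSKM peaks are paler or shorter than those of OSKM B12, with none in Ahcyl2, and the peaks of Mat2a and Srm run kilobases past the end of the gene.

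Mat2a (ENSMUSG00000053907), the catalytic subunit of methionine adenosyltransferase, lies at chr6:72432799-72439556 on the reverse strand, with 8 exons over 6758 bases. Its density was the highest of the members in 3 libraries, at 0.603 in MEF, 0.674 in MEF B12 and 0.701 in OSKM B12, and it was 0.308 in OSKM. In OSKM it did not differ from Srm beyond counting error. OSKM was at 0.511 of MEF (0.435 to 0.598) and OSKM B12 at 2.28 times OSKM (1.95 to 2.67). The covered share differed less, with 72.0%, 71.7%, 59.8% and 73.3% in MEF, MEF B12, OSKM and OSKM B12. In 3 libraries a single peak of 17646 to 21031 bases ran from intron 1 of Mat2a across its end and 12.8 to 16.1 kb beyond, over the convergent gene Ggcx, whose end is separated from that of Mat2a by 2086 bases, and which was covered over 83.2%, 83.9%, 80.1% and 89.2% in the 4 libraries. Only 23.4% to 27.6% of that peak lay in Mat2a, so its pileup is a mean over both genes. In OSKM the domain was split into 3 peaks, the last of which ended 1.25 kb past Mat2a, with scaled pileups of 0.494, 0.531 and 0.530, and 76.3% of their bases lay in Mat2a. How much of the Mat2a ratio depends on where peaks were joined was not tested.

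Mat2b (ENSMUSG00000042032), the regulatory subunit, lies at chr11:40679314-40695203 on the reverse strand, with 7 exons over 15890 bases. A single peak covered 53.4% of it in MEF, 55.1% in MEF B12 and 53.4% in OSKM B12, and 3 peaks covered 46.6% in OSKM. The density was 0.363, 0.417, 0.228 and 0.393 in MEF, MEF B12, OSKM and OSKM B12, a ratio of 0.629 (0.555 to 0.712) in OSKM against MEF and of 1.72 (1.52 to 1.95) in OSKM B12 against OSKM. This gene had its highest density in MEF B12 and not in OSKM B12, from 661 and 633 estimated tags. The proximal edge of the mark kept its place, with the first peak beginning between 7.13 and 7.40 kb from the start in all 4 libraries, in intron 1.

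Ahcy (ENSMUSG00000027597), S-adenosylhomocysteine hydrolase, lies at chr2:155059310-155074497 on the reverse strand, with 10 exons over 15188 bases. It was covered over 50.9% in MEF and 59.3% in MEF B12, against 43.8% in OSKM and 55.8% in OSKM B12, with densities of 0.259, 0.350, 0.179 and 0.355. Both libraries with vitamin B12 were above MEF in density, as in every other member except Ahcyl1, and MEF B12 was at 1.35 times MEF (1.19 to 1.54). OSKM was at 0.691 of MEF (0.597 to 0.802), a smaller difference than that of 87.0% of marked genes. A stretch of 504 bases of exon 10, in the 3′ UTR at chr2:155059936-155060439, was in no peak in any library. Of the 75-base words that start in it, 84.7% occur elsewhere in the genome, for instance in the retrogene Gm4737 on chromosome 16 and the pseudogene Gm9826 on chromosome 1, and the authors kept only reads with 1 place to align.

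Ahcyl1 (ENSMUSG00000027893) and Ahcyl2 (ENSMUSG00000029772) encode proteins related to Ahcy in sequence, the better known of which, AHCYL1 or IRBIT, binds the inositol trisphosphate receptor. Ahcyl1 lies at chr3:107663120-107696560 on the reverse strand with 17 exons over 33441 bases. Its density was 0.337 in MEF and 0.336 in MEF B12, against 0.218 in OSKM and 0.360 in OSKM B12. It was the 1 member with no higher value in MEF B12 than in MEF, at a ratio of 0.998 (0.920 to 1.08), while OSKM B12 was at 1.65 times OSKM (1.51 to 1.81). The mark began late, at 18.5 to 19.3 kb from the start in the 4 libraries, at the end of intron 1 or in intron 2. The covered share stayed between 38.8% in OSKM and 44.6% in MEF. Ahcyl2, at chr6:29768480-29912304 on the forward strand with 17 exons over 143825 bases, had 2.14% of its body in peaks in MEF, 3.39% in MEF B12 and 4.69% in OSKM B12, and is listed at 0 in OSKM. Its 7, 7 and 9 peaks lay in the distal part, none nearer to the start than 102 kb, and the longest was 1733 bases. It is the only member below the 10% that defines a marked gene, and 1.30% of marked genes had a density in MEF below its 0.00922. No fold is given against OSKM, since no enrichment was detectable there at this depth.

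Mtap (ENSMUSG00000062937), methylthioadenosine phosphorylase, is the first enzyme of methionine salvage. It lies at chr4:89137122-89181081 on the forward strand with 8 exons over 43960 bases. It was covered over 52.0% in MEF and 51.1% in MEF B12, against 24.9% in OSKM and 55.0% in OSKM B12, while its density was 0.256, 0.274, 0.103 and 0.307. OSKM against MEF had a ratio of 0.404 (0.364 to 0.448), the lowest of the members with peaks in OSKM. Between OSKM and OSKM B12 the ratio was 2.97 (2.68 to 3.29), within counting error of that of Mtr, which had the larger log2 change of the 2 (1.24 against 1.22). Within the genome these were not extreme values, since 19.6% of marked genes had a lower log2 change from MEF to OSKM. The number of peaks hardly moved, with 13, 13, 14 and 13, but the longest peak was 1576 bases in OSKM and 3467 to 5175 in the others. Of the bases called in MEF, 40.8% were called in OSKM, the lowest share among the members with peaks in OSKM, and 78.4% of the 13533 bases lost were called in OSKM B12.

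Amd1 (ENSMUSG00000075232), S-adenosylmethionine decarboxylase, commits SAM to polyamine synthesis. It lies at chr10:40287458-40302186 on the reverse strand with 8 exons over 14729 bases. It was covered over 23.3% in MEF and 33.8% in MEF B12, against 18.2% in OSKM and 24.5% in OSKM B12, while its density was 0.117, 0.189, 0.0667 and 0.148. MEF B12 was the highest of the 4, at 1.61 times MEF (1.34 to 1.95), and Amd1 and Mtrr were the members with the largest log2 change between those 2 libraries, at 0.52 in both. OSKM was at 0.571 of MEF (0.449 to 0.724) and OSKM B12 at 2.22 times OSKM (1.76 to 2.80). The values are based on 114 to 277 estimated tags. A stretch of 1864 bases of exon 8, nearly all of it 3′ UTR, at chr10:40287502-40289365, was in no peak in any library, although peaks lay on both sides of it in MEF and MEF B12. Of the 75-base words in it, 76.6% occur elsewhere, for instance in a stretch that overlaps Amd2 on the same chromosome, at chr10:35708690-35711891. Over the whole body this share was 16.0%, the highest of the members, against 7.97% in Ahcy and 0% in Srm. The part of repeated sequence in these gaps was not tested. Among the gaps in Mtr the share of 75-base words that occur elsewhere ran from 0%, as at chr13:12210460-12210889, to 36.4% at chr13:12187366-12187857.

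Srm (ENSMUSG00000006442), spermidine synthase, lies at chr4:148591503-148594619 on the forward strand with 7 exons over 3117 bases, the shortest body of the 10. A single peak was called in each library, which began in intron 3 and covered 45.4% of the body in MEF and 45.2% in MEF B12, against 47.4% in OSKM and 52.6% in OSKM B12. The density was 0.386, 0.461, 0.322 and 0.525. It was the member with the smallest difference between MEF and OSKM that could be expressed as a ratio, at 0.836 with an interval that includes 1 (0.644 to 1.08), and 95.7% of marked genes had a lower log2 change. OSKM B12 was at 1.63 times OSKM (1.28 to 2.09). The peak ran 4.49 kb past the end of the gene in MEF and 4.50 kb in MEF B12, against 2.77 kb in OSKM and 4.52 kb in OSKM B12. Its whole length was 5901, 5907, 4250 and 6163 bases in the same order. Most of the peak thus lay outside Srm, and its pileup is a mean over those bases too. How much the Srm densities and ratios depend on this was not tested. With 116 to 166 estimated tags, Srm and Amd1 are the least precisely measured of the 9 marked members.

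Amd1 and Ahcyl2 had the lowest densities in all 4 libraries, and the order of the other members differed between libraries. In MEF, Mat2a was above Mtr by a factor of 1.56 (1.41 to 1.71), and Mtr, Srm, Mat2b and Ahcyl1 followed with no neighbouring pair apart beyond counting error. Ahcyl1 was above Mtrr by 1.21 (1.10 to 1.33), after which Mtrr, Ahcy and Mtap could not be told apart, and Amd1 and Ahcyl2 came last. In OSKM, Mtr stood 6th, below Srm, Mat2a, Mat2b, Ahcyl1 and Mtrr, and in OSKM B12 Mtrr came after Mat2a and Srm at 0.494, next to Mtr at 0.493.

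The mark lay toward the 3′ end, with a larger covered share in the last 20% of the body than in the first in 10 of 10 members, except in OSKM, where Ahcyl2 had no peak and this held for 9. In none of them did a peak touch exon 1 in any library, and none of the 14 RefSeq promoter windows of the 9 members with an entry, from 250 bases before to 50 bases after a start, held a base in a peak. In MEF, the 20% of the body nearest the start was covered over 6.57% on average and the 20% nearest the end over 75.4%. The corresponding values were 11.4% and 79.6% in MEF B12, 3.33% and 63.2% in OSKM, and 10.2% and 78.6% in OSKM B12. On average the 20% nearest the start had the lowest coverage in every library, and 8 of 10 members had no peak there in MEF and in OSKM, against 7 in both libraries with vitamin B12. Peaks ran past the end of 8 members in MEF, MEF B12 and OSKM B12 and of 4 in OSKM (Mat2a, Mat2b, Ahcy and Srm). The counts of this paragraph were not made over all marked genes, so none is read as a trait of the members. The paper describes a rise of H3K36me3 toward the 3′ end for gene bodies in general.

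**Figure D5:**
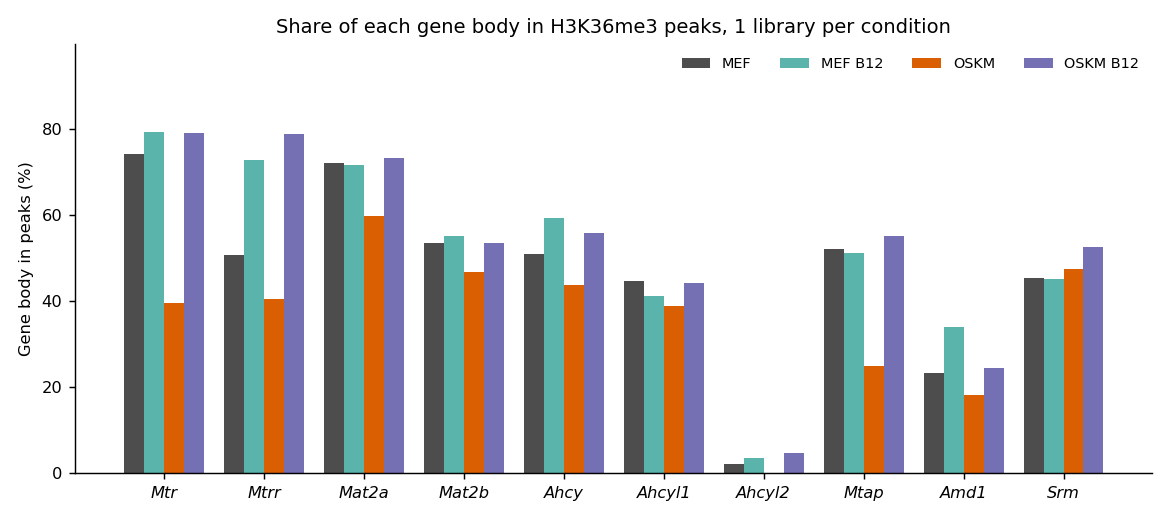
Share of each gene body in peaks (%) for the 10 members, with a bar for the 1 library of each condition. Mtr and Mtap have OSKM bars of 39.5% and 24.9% against 74.1% and 52.0% in MEF, whereas the OSKM bar of Srm, at 47.4%, is above its MEF bar.

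Other genes of the same pathways were read from 6 lists, in which a gene was used when it was marked. The counts of each list stand beside the 69.2% of all marked genes called lower in OSKM than in MEF and the 95.3% called higher in OSKM B12 than in OSKM, and nothing is read from them about a list. Of the other methionine and SAM cycle genes 1 of 8 was marked, Gnmt, which disposes of excess SAM. Its covered share was 29.2% in MEF and 23.1% in MEF B12, against 8.22% in OSKM and 48.9% in OSKM B12, and the liver genes Bhmt, Bhmt2 and Mat1a had no peak in any library. Of the methionine salvage genes downstream of Mtap all 5 were marked, and 2 were called lower in OSKM than in MEF. Among them Mri1 had the highest density in MEF (0.405), Got1 the most negative log2 change (−1.21) and Apip the least (−0.30). All 5 were called higher in OSKM B12 than in OSKM.

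In polyamine metabolism 12 of 14 genes were marked, of which 4 were called lower in OSKM and 8 higher in OSKM B12. Of these 12 genes Sat1 and Sat2, the polyamine acetyltransferase and its relative, are listed at 0 in both MEF and OSKM and passed the 10% filter only through libraries with vitamin B12, so that their differences with vitamin B12 were fixed by the filter. Smox, spermine oxidase, also passed only through MEF B12, with 16.6% covered. Dohh, a hydroxylase in the hypusine pathway, had the highest density in MEF (0.484) and a log2 change of −0.20, and Oaz1, the antizyme that lowers ornithine decarboxylase, had the most negative change (−1.45). Sat1 had 16.1% of its body covered in MEF B12 and 17.7% in OSKM B12, and is 1 of the 8 genes called higher. Sat2 had 14.9% covered in MEF B12 and is listed at 0 in OSKM B12. Both have a log2 change of 0 from MEF to OSKM, the least negative of the list.

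Of 6 methionine transporter genes 4 were marked, with 3 called lower in OSKM and 3 higher in OSKM B12. Slc38a2 had the highest density, at 0.872 in MEF and 0.528 in OSKM, Slc43a1 the most negative change (−0.89) and Slc7a5 the least (−0.19). Of 9 arginine methyltransferases 7 were marked, with 3 called lower in OSKM and 7 higher in OSKM B12. Prmt1 had the highest density in MEF (0.619), Prmt9 the most negative change (−1.02) and Prmt5 the least (−0.48). Of 13 other SAM-using methyltransferases 8 were marked, with 6 called lower in OSKM and 7 higher in OSKM B12. Lcmt1 had the most negative change (−1.21) and Gamt the least (−0.29). The median log2 changes from MEF to OSKM were −0.55 for salvage, −0.30 for polyamines, −0.69 for transport, −0.57 for arginine methyltransferases and −0.82 for the other methyltransferases, on both sides of the −0.71 of all marked genes. The polyamine median includes Sat1 and Sat2, which had no peak in either library and so a change of 0.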

How the data were processed

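Chromatin of i4F MEFs was analysed by H3K36me3 ChIP–seq with an input library for each condition. Per the labels the precipitated mark is H3K36m3, while the protocol spells the antibody's target H3K3me3. Reads were aligned by the authors to mm10 (Bowtie 0.12.9), who kept reads with 1 alignment, merged runs, removed duplicates and called broad peaks with MACS2 2.2.6 in each library against its own input, at q-value cut-offs of 0.05 and 0.1. Input libraries entered through these calls and held 34524486 to 36150875 tags. In the deposited lists the pileup is a signal (mean number of extended fragments over a peak), the fold enrichment is a ratio to the local input with 1 added to both, and significance is given as −log10 of p and q. The input was scaled down, so pileups were divided by the tags of the H3K36me3 library and multiplied by 1000000. Peaks on unplaced scaffolds (1 to 16 per library) were left out.

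In Python 3.11 (numpy 2.4.6, scipy 1.17.1, matplotlib 3.10.9 for plots) the covered share and the density of each gene body were computed for the protein-coding transcript with the largest summed exon length. Log2 changes used a pseudocount of 0.05, which makes those of genes with little signal smaller. Ratios of densities of single members carry exact 95% conditional binomial intervals of estimated tags. For summed densities the interval of the pooled tags was moved to the ratio. Exact 75-base words were searched on both strands of GRCm38, including unplaced scaffolds. No test across genes was run. Weaker enrichment than the depth allowed to be called is missing from the lists, so a body without a peak had none detectable. The overlap arithmetic was tested on simulated data in 200 cases, of which 0 differed. The members, the lists and the markers were chosen with earlier results of these data known. Named are all 10 members and, in each other list, the marked gene with the highest density in MEF and those with the most and the least negative change from MEF to OSKM. An item that this rule names is not reported here. The alternatives tried are given in the closing section. Protein sequences were not used here.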

Additional observations from a re-analysis of the deposited data

Results flagged for a closer look

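Vitamin B12 went with opposite directions of the covered share in the absence and in the presence of OSKM in 4 members, and of the density in 1. Of the 8779 marked genes, 664 had a lower density in MEF B12 than in MEF, and 8725 had a higher one in OSKM B12 than in OSKM. The share of marked genes with opposite directions was not counted, so nothing is read from these counts about the members. The share of Mat2a differed by −0.370 percentage points between MEF B12 and MEF and by 13.5 points between OSKM B12 and OSKM. The same differences were −3.41 and 5.36 points in Ahcyl1, −0.935 and 30.2 points in Mtap, and −0.225 and 5.26 points in Srm. In Ahcyl1 the log2 change of density was −0.0029 without OSKM and 0.61 with it. The negative values are at most 3.41 points, each rests on 1 library per condition, and the difference between the directions was not tested.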

How the results depend on the processing

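No paired analysis was possible because a single library stands for every condition. The results below are the number of members past 1.5-fold, the ratio of mean covered shares (0.767, 1.45 and 1.09 for OSKM against MEF, OSKM B12 against OSKM and MEF B12 against MEF) and the ratio of summed densities. When peaks under a −log10 q of 5 were dropped, the ratios of covered shares were 0.189, 8.24 and 1.44, those of summed densities 0.169, 9.58 and 1.47, and 3 members passed in MEF B12, beside 18.1% of marked genes. With densities divided by the median of marked genes, the summed ratios turned to 1.21 and 0.838 in the first 2 comparisons and were 1.01 in the third, 0 members passed in any (beside 11.0%, 10.3% and 1.66% of marked genes), and the called members Mat2a (0.046 from MEF to OSKM) and, from OSKM to OSKM B12, Mat2a (−0.14), Mat2b (−0.49), Ahcy (−0.30), Ahcyl1 (−0.54), Amd1 (−0.14) and Srm (−0.58) changed sign on the log2 scale, since that scale removes the shift common to all genes. Over the bases called in all 4 libraries the summed ratios were 0.757, 1.52 and 1.12. There 1 member was past the fold in OSKM, Mat2a, and 4 in OSKM B12, beside 5.63% and 48.7% of the marked genes with such bases. Each of these bases carries the mean of its whole peak, and all of them passed the cut-off in OSKM. Ahcyl2 had no such base, so the counts are of 9 members. Only 27.6% of the MEF peak over Mat2a lay in that gene, so nothing is read from its single call. With fold enrichment minus 1 the first 2 summed ratios were 0.532 and 2.26, and 5 members passed in OSKM, beside 75.2% of marked genes. Unscaled pileups gave 1.88 and 1.08 for the comparisons with vitamin B12, and leaving out 2 kb at the start gave 1.99 in OSKM B12 against OSKM. With a pseudocount of 0.01, 7 members passed in OSKM and 1 in MEF B12, beside 81.9% and 7.14% of marked genes. With 0.2, 4 passed in OSKM B12, beside 64.7%, and at a fold of 2, 0 in OSKM and 4 in OSKM B12, while the shares of marked genes were then 19.3% and 47.4%. Dropping peaks under 2-fold enrichment, equal numbers of peaks, merged peaks, bases shared with other genes, and the longest transcript by span, which was chosen after seeing the data, moved no ratio beyond its counting interval and no count by over 1.5 times. For covered shares that interval was built from numbers of peaks and not from tags. It was wide, at 0.534 to 1.10 in OSKM against MEF, so a covered share staying inside it shows little. Over all alternatives, the share of marked genes called ranged from 5.63% to 81.9%, 10.3% to 98.2% and 0.230% to 18.1%. Depth limits Ahcyl2, Amd1 and Srm most.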
